A study of Mus musculus with 5 samples.

Results

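The members are Ang, Rnase4 and Rnase6, secreted ribonucleases of the RNase A family. They were taken by gene symbol from a table of transcript levels, in which they fill 4 of 26531 transcript rows (3 of 22098 symbols): 2 rows for Ang and 1 each for Rnase4 and Rnase6. The 3 genes were picked with their levels in these same libraries in view, so their differences between groups are described without a p-value.

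RNA was measured in sorted marrow cells of C57BL/6 mice, 6 to 7 weeks of age, to ask which blood lineages the transcription factor Ikaros (Ikzf1) affects. The groups were 2 libraries from mice homozygous for a mutation of Ikaros zinc finger 1 (Ikaros_ZnF1-/-, here dF1), 1 library from a homozygous mutant of zinc finger 4 (Ikaros_ZnF4-/-, here dF4) and 2 wild-type libraries (wt). All were labelled as sorted pro-B cells of Hardy fraction A, taken without removing other lineages. The design text calls the dF1 pair biological replicates; no label states that the wt pair came from different animals, so their spread may be technical.

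Levels are given in RPKM (reads per kilobase of transcript and library size; RPM is the same without the division by length), which allows genes of different length to be compared. The summed RPKM of a library lay between 286080 and 345446. Low values of the dF4 library fell on steps of 1.68 RPM for 82.6% of 3880 values (within 0.1 read), which puts it at about 597000 reads. No such step was found in the other 4 libraries, so their depth is unknown. Intervals given for dF4 are exact 95% Poisson intervals on reads estimated this way and cover counting error only. The labelled cell type was set against marker lists. A list of 12 plasmacytoid dendritic cell genes (pDC, the interferon-producing dendritic cell) summed to 4194 and 4834 RPKM in dF1, 578.5 in dF4 and 4570 and 5186 in wt. A list of 9 early B lineage genes summed to 228.4 and 251.3 RPKM in dF1, 1088 in dF4 and 311 and 168.1 in wt, so in the dF1 and wt libraries the pDC genes far exceeded those of the labelled cell type. Ikzf1 was at 182.2 and 182.1 RPKM in dF1, 237.7 in dF4 and 175.8 and 141.1 in wt, a value over the whole transcript that does not show the loss of a single finger.

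Enzymes of the RNase A family are small, disulfide-bonded proteins that are secreted or stored in granules and cleave single-stranded RNA. Ang encodes angiogenin, which promotes blood vessel growth, cleaves transfer RNA under stress and, in mouse bone marrow, acts on hematopoietic stem and progenitor cells when it is released by neighbouring cells of the niche. Rnase4 encodes a ribonuclease with a preference for cutting after uridine, and Rnase6 one with antimicrobial activity that is known from human monocytes and macrophages.

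The Ang and Rnase4 genes overlap, which bears on how far their values are separate measurements. In GENCODE M21 (mouse build GRCm38) the Rnase4 transcript NM_021472 and the Ang transcript NM_001161731 both begin upstream, at starts 73 bases apart, and splice from an overlapping first exon to a coding exon of their own. The second Ang transcript, NM_007447, begins further downstream and has the same coding exon as the first. The upstream Ang and Rnase4 transcripts share 104 exon bases, which are 14.3% of the Ang transcript and 6.85% of the Rnase4 transcript. The authors' table gives NM_001161731 a length of 803 bases, against 728 in GENCODE, so the stretch they share may be longer than drawn. The pair of Ang transcripts share 620 bases, 85.2% of NM_001161731 and 56.7% of NM_007447. A further Rnase4 transcript with a downstream first exon was not analysed here. The values were made on another build (mm9), and how the authors divided reads among overlapping transcripts is not given in the sources used here.

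**Figure D1:**
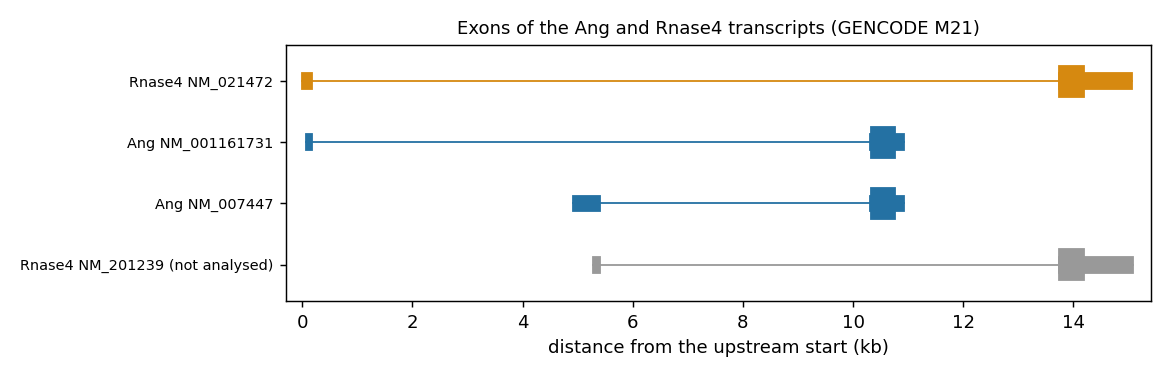
Exons of the Ang (blue) and Rnase4 (orange) transcripts in GENCODE M21, by distance in kb from the upstream Rnase4 start, with coding parts drawn tall and a transcript that was not analysed in grey. The upstream Ang and Rnase4 transcripts share their first exon over 104 bases, and each gene has a coding exon of its own.

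The promoters are shown because Ang and Rnase4 have overlapping first exons and their upstream transcripts were higher together in dF1. RefSeq (GRCm38.p6) lists the upstream window under both genes and the downstream one under Rnase4, and 1 window at the start of Rnase6 is set beside them. In GENCODE M21 it is the downstream Ang transcript, NM_007447, that begins directly after the downstream window. Each run holds the 250 bases before the start, 5′ to 3′ on the plus strand. The searched motifs are in capitals: TGGGAA as the core that Ikaros is known to bind, GGAAGT as a motif of ETS factors such as PU.1, TATAAA for the TATA box and CACCTG for the E-box, each on both strands. The Ikaros and ETS motifs can overlap, and did not do so here.
Ang and Rnase4 upstream start, chr14:51090827-51091076 (+): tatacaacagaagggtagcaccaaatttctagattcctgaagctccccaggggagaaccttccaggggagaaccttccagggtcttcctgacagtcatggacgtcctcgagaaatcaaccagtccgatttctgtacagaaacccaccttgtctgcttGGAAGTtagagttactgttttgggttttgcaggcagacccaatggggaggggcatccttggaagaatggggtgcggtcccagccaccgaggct
Ang and Rnase4 downstream start, chr14:51095750-51095999 (+): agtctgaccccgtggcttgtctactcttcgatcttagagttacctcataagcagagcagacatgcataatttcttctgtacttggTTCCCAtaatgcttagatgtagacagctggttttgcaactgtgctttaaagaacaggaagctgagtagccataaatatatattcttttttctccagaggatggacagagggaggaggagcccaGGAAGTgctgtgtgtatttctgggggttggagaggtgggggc
Rnase6 start, chr14:51128814-51129063 (+): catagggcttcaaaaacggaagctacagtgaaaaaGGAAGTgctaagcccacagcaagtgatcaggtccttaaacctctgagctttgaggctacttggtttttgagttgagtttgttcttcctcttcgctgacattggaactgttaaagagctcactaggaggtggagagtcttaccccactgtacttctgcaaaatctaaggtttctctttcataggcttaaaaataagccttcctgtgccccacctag

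The upstream window of Ang and Rnase4 held GGAAGT, beginning 93 bases before the start, and no other searched motif. The downstream window held TTCCCA, the Ikaros core read on the minus strand, 165 bases before the start, and the ETS motif 42 bases before it. The Rnase6 window held the ETS motif 215 bases before the start. This window lies at the start of the analysed Rnase6 transcript. GENCODE M21 also draws an Rnase6 transcript that begins further upstream, and the promoter of that transcript was not read. Of 32817 promoter windows of the same length, the ETS motif was in 19.7%, the Ikaros core in 21.6%, the E-box in 17.2% and the TATA box in 12.4%, on either strand. A match is only a run of letters, and the absence of one says nothing about binding.

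Rnase4 was higher in both dF1 libraries than in either wt library and lower in dF4 than in either. It was at 29.7 and 35.6 RPKM in dF1, 3.3 in dF4 and 12.3 and 9.3 in wt. The dF1 and wt values did not overlap, and the mean was 32.6 ± 4.17 RPKM in dF1 and 10.8 ± 2.12 in wt (SD, n = 2 each), a 3.02-fold difference. On the log2(RPKM + 1) scale the difference of dF1 minus wt was 1.52 (SE 0.22). The dF4 value rests on 3 reads and has an interval of 0.682 to 9.66 RPKM. Its ratio to the wt mean was 0.306, with a counting interval of 0.0631 to 0.895, and the upper end in RPKM lies above wt replicate 2 and below wt replicate 1. In dF1 minus wt, 19 of the 12215 transcripts tested (those averaging at least 1 RPKM across all 5 libraries) had a larger log2 difference than Rnase4. In a sorted population, more cells of a type and more RNA per cell cannot be told apart.

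Ang showed the same step between dF1 and wt in its upstream transcript. NM_001161731 was at 13.9 and 16.5 RPKM in dF1, 10.4 in dF4 and 5 and 3 in wt. Again both dF1 libraries lay above both wt libraries, and the mean was 15.2 ± 1.84 RPKM in dF1 and 4 ± 1.41 in wt (SD, n = 2 each), a 3.8-fold difference and 1.72 (SE 0.31) on the log2(RPKM + 1) scale. In this comparison 15 transcripts had a larger log2 difference. The dF4 value of Ang rests on 5 reads, and its interval of 3.4 to 24.4 RPKM holds the dF1 libraries and wt replicate 1, so that at this depth it could be told neither from dF1 nor from that wt library.

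The downstream Ang transcript was low in dF1 and wt. NM_007447 was at 0.3 and 0.3 RPKM in dF1, 3.1 in dF4 and 0.2 and 0.1 in wt, and the dF1 and wt values differ by 1 to 2 of the smallest steps the table can show. The dF4 value is 2 reads, with an interval of 0.37 to 11 RPKM. Multiplied by length, the wt values came to 0.22 and 0.11 RPM for NM_007447, against 4.01 and 2.41 for NM_001161731. Reads over the coding exon that both hold were therefore not counted in full for both. Averaging 0.8 RPKM, it was the 1 member row of the 4 that did not enter the fit.

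**Figure D2:**
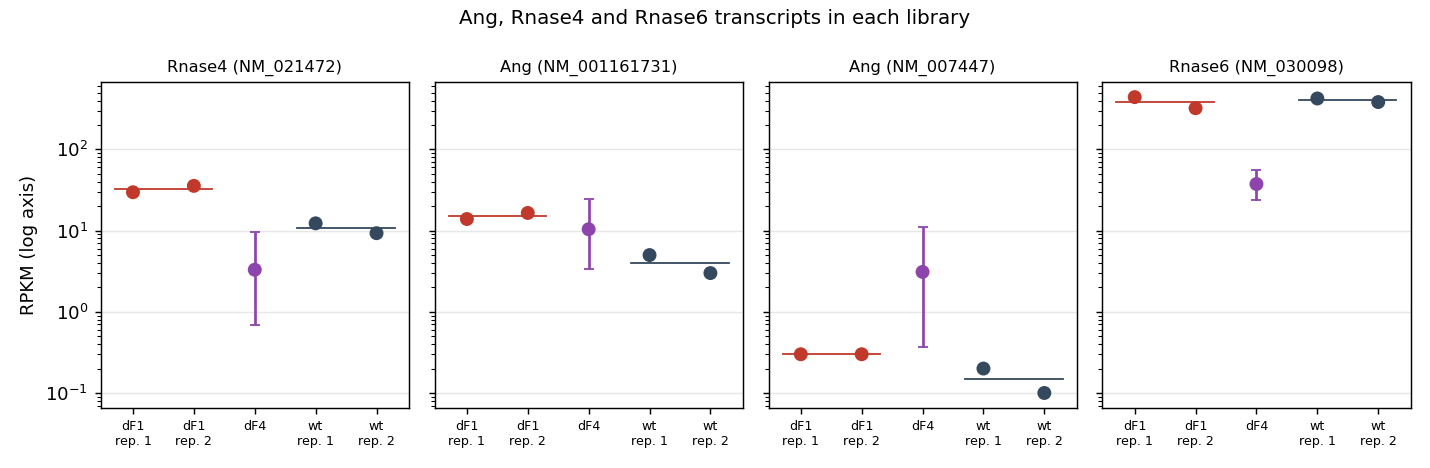
RPKM on a log axis of each member row in each library, with dF1 (red) and wt (grey) means as lines and the exact 95% Poisson interval for dF4 (purple). Rnase4 and the upstream Ang transcript are higher in both dF1 libraries than in either wt library, and Rnase6 is at 37.5 RPKM in dF4, against 424.3 and 383.5 in wt.

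The Rnase4 level in RPKM was 2.14 and 2.16 times that of the upstream Ang transcript in dF1, 0.317 times in dF4 and 2.46 and 3.1 times in wt. Rnase4 thus exceeded Ang in dF1 and wt, by less in both dF1 libraries than in either wt library. Of the summed RPM of the upstream Rnase4 and Ang transcripts, Rnase4 held 80.2% and 80.4% in dF1 and 82.4% and 85.5% in wt. In dF4 it held 37.6%, from 3 of 8 reads, with an exact binomial 95% interval of 8.52% to 75.5%. The interval covers counting error in dF4 only, and reads over the shared first exon may be counted in either row. Reads over the coding exon of Ang may likewise be counted in its downstream row, which was at 3.41 RPM in dF4. As the members were picked on these values, nothing is read from the difference in share. Measured as the root mean square distance of centred log2 profiles, Ang and Rnase4 were 0.13 apart over the 4 dF1 and wt libraries and 1.03 apart with dF4 included.

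Both dF1 libraries lay above both wt libraries for the upstream Ang and the Rnase4 transcripts, and not for Rnase6. The downstream Ang row also did so, at 0.3 and 0.3 against 0.2 and 0.1 RPKM, but it is not among the transcripts tested. Over the 12215 transcripts tested, both dF1 libraries lay above both wt libraries for 16.8%. With a log2 difference of at least 1 as well it was 0.598%, and the upstream Ang and the Rnase4 transcripts met this too. As the members were picked on these values, nothing is read from these shares. Across all transcripts limma called none at an adjusted p of 0.05 (0 of 12215, 0%), and 875 (7.16%) had an unadjusted p under 0.05.

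The dF1 libraries differed from each other in sex. Xist, expressed from the inactive X of female cells, had 93.2 and 0 RPKM in the dF1 libraries, 0 in dF4 and 77.7 and 83 in wt. Eif2s3y, a Y chromosome gene, was at 0 and 37.5 RPKM in dF1, 41.4 in dF4 and 0 and 0 in wt. By these genes dF4 was male and both wt libraries were female. In each dF4 difference from wt, sex and genotype cannot be told apart. Ang and Rnase4 were higher than wt in both dF1 libraries. The markers of other cell types were read beside them. The 6 NK cell genes summed to 1438 and 1296 RPKM in dF1, 477.5 in dF4 and 1158 and 509.6 in wt. Both dF1 libraries were above both wt libraries for Ncr1 and Gzma only. Wt replicate 1 was above both dF1 libraries for Prf1 (75.1 against 56.7 and 56.6 RPKM) and Eomes (58.9 against 55 and 51.6). For Klrb1c and Nkg7 it lay inside the dF1 range. The 3 endothelial genes summed to 82.5 and 93.2 RPKM in dF1, 15 in dF4 and 54.3 and 47.7 in wt, nearly all from Cdh5 and Kdr, while Emcn was listed at 0 in both dF1 libraries. The 14 monocyte and macrophage genes summed to 463.3 and 438.4 RPKM in dF1, 1536 in dF4 and 419.6 and 355 in wt. Most of this came from Cd68, Ccr2 and Ly6c2 in dF1 and wt, and from Lyz2 (1124.3 RPKM) in dF4. Against both wt libraries, 10 of the 14 were higher in dF4 and 2 lower (44.7% and 42.3% of all transcripts tested). Cd68 was at 51.4 RPKM in dF4 and 171.4 and 215.9 in wt. The part of these lists in the Ang and Rnase4 values was not tested. The 11 stromal genes, a marrow niche list, summed to 2.6 and 2.2 RPKM in dF1, 108.9 in dF4 and 2.7 and 15.3 in wt; Cxcl12, its niche chemokine, was at 0.5 and 0.2 RPKM in dF1, 62.6 in dF4 and 0.7 and 0.7 in wt, and Dcn and Lum were listed at 0 in every library.

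Rnase6 was by far the most abundant member and did not share the step of Ang and Rnase4 between dF1 and wt. It was at 441 and 321.8 RPKM in dF1, 37.5 in dF4 and 424.3 and 383.5 in wt. The wt values lay inside the range of the dF1 libraries, and the mean was 381 ± 84.3 RPKM in dF1 and 404 ± 28.8 in wt (SD, n = 2 each), a log2 difference of -0.10 (SE 0.24). By mean level Rnase6 ranked 56 of 26531 transcripts in dF1, 1887 in dF4 and 45 in wt. The dF4 value rests on 24 reads, and its interval of 24.1 to 55.9 RPKM lies far below every dF1 and wt library. The wt mean was 10.8-fold and the dF1 mean 10.2-fold the dF4 value, and the log2 difference of dF4 minus wt was -3.39, with 94 of 12215 transcripts lower still in this difference.

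By a rule of size (dF4 outside both wt libraries, at least 1 from the wt mean on the log2 scale, wt libraries within 0.5 of each other, mean of at least 5 RPKM), Rnase4 and Rnase6 counted as lower in dF4. Of the 8759 transcripts considered, 9.34% counted as lower and 6.96% as higher. Ang did not count as higher because its wt libraries were 0.58 apart. Both of these outcomes turn on the setting: with a pseudocount of 5 Rnase4 was at -0.92 and no longer counted as lower. Ang counted as higher after median centring (difference 1.15, wt gap 0.48) and after quantile normalization over the transcripts considered (1.33, gap 0.49). It also did so without wt replicate 1 (1.51), where a single wt library leaves no gap for the rule to judge. Rnase6 counted as lower in every setting tried. There is no replicate of dF4, hence no test, and dF4 differed from both wt libraries in sex as well as genotype. The dF1 and dF4 differences share the wt libraries.

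In dF4 the pDC list was lower, as was Rnase6. Between replicates they parted, as from replicate 1 to replicate 2 the pDC sum rose in dF1 and in wt while Rnase6 fell in both. All 12 pDC genes were below both wt libraries in dF4, as were 42.3% of the 12215 transcripts tested, and Cox6a2, Cd300c and Klk1 were listed at 0 there. Of 6 conventional dendritic cell genes, 4 were also below both wt libraries in dF4 and 2 above. Siglech, a pDC surface lectin, was at 785.2 and 807.3 RPKM in dF1, 5.5 in dF4 and 936.2 and 838.4 in wt. The neutrophil list moved the other way, with 12 of 12 genes above both wt libraries (44.7% of all transcripts tested) and a sum of 33310 RPKM in dF4, against 217.6 and 841.2 in dF1 and 398.3 and 1066 in wt. The part of these cell types in the Rnase6 difference was not tested.

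**Figure D3:**
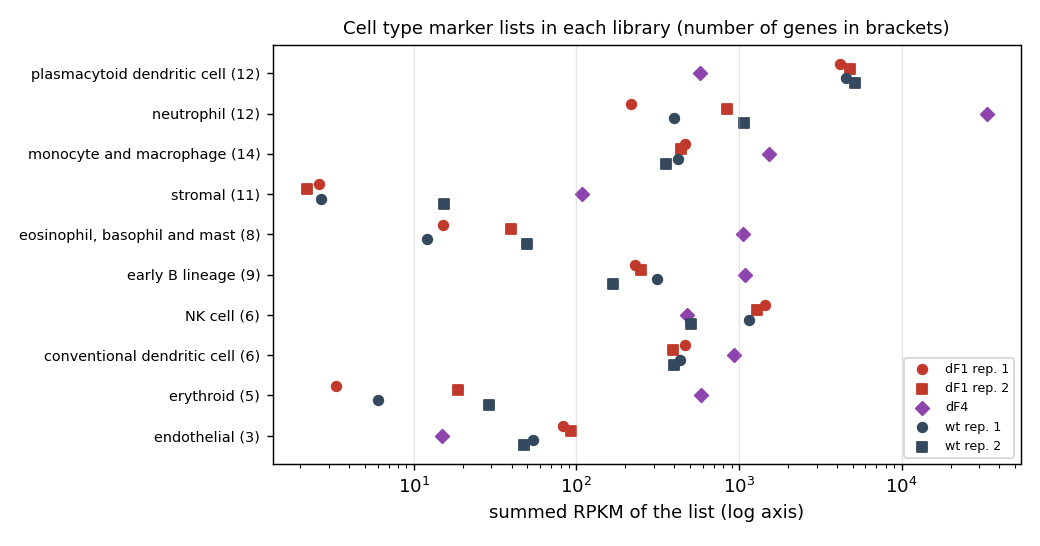
Summed RPKM on a log axis of 10 marker lists in each library, with the number of genes in brackets. In dF4 the pDC sum is 578.5, below the 4194 to 5186 of the other libraries, and the neutrophil sum is 33310.

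The order of the members' levels was Rnase6, Rnase4, Ang in dF1 and wt, with no overlap between neighbours in that order within either group. In dF4 Rnase6 was again highest, and the intervals of Rnase4 and Ang overlapped.

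The other genes of this stretch of chromosome 14 were low or listed at 0. In RefSeq order, the gene before Ang is Olfr750 and the one between Rnase4 and Rnase6 is Eddm3b, and both were listed at 0 in every library, as was Rnase1 after Rnase6. Rnase12, also upstream of Ang, was at 0.2 and 2.2 RPKM in dF1, listed at 0 in dF4 and at 1.3 and 1.1 in wt. Ang2, which is related to Ang and lies beyond Rnase6, was at 1 and 1.6 RPKM in dF1, listed at 0 in dF4 and at 1.5 and 1.4 in wt. For both genes the dF1 and wt ranges overlapped.

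Of the RNase A superfamily list, 24 of 27 symbols were in the table; Rnase2a, Rnase2b and Ear3 were not found under those symbols. Apart from the members there were 21, of which 10 were listed at 0 in every library and 6 had a mean of at least 1 RPKM. These 6 were Ang2 and 5 Ear genes, the eosinophil-associated ribonucleases of rodents; Ear1, Ear2 and Ear12 reached that mean only through dF4. Of the 6, 3 had a higher and 3 a lower log2 mean in dF1 than in wt, with a median of -0.03 against 0.01 for all transcripts. In 0 of the 6 were the dF1 and wt libraries apart. Of all transcripts tested, 16.8% had both dF1 libraries above both wt libraries and 17.9% below. With 6 genes, 3 of them low in dF1 and wt, nothing is read from this count. The Ear genes are close copies of each other, so the division of reads among them is uncertain.

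Ear7 was at 1 and 4.1 RPKM in dF1, 60.8 in dF4 and 0.8 and 4.3 in wt. Ear6 was at 0.7 and 3.1 RPKM in dF1, 44.6 in dF4 and 0.6 and 3.1 in wt. Both differed more between replicates of 1 genotype than between dF1 and wt, and both were far higher in dF4, from 17 reads for Ear7 (35.5 to 97.5 RPKM) and 19 for Ear6 (26.9 to 69.8 RPKM). Ear1, Ear2 and Ear12 were at 1.3 RPKM or below in dF1 and wt and at 4.7, 7 and 10.7 RPKM in dF4, from 2 or 3 reads each. The 8 eosinophil, basophil and mast cell genes summed to 15.1 and 39.5 RPKM in dF1, 1064 in dF4 and 12.1 and 49.8 in wt, and 8 of 8 were above both wt libraries in dF4, against 44.7% of all transcripts tested. Epx, the eosinophil peroxidase, was at 0.7 and 2.5 RPKM in dF1, 37.8 in dF4 and 0.5 and 2.1 in wt. The part of these cells in the Ear values was not tested.

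Outside the family, 4 genes tied to angiogenin were read. Rnh1, which encodes the cytosolic ribonuclease inhibitor that binds angiogenin tightly, was at 73.4 and 97.6 RPKM in dF1, 88.6 in dF4 and 74.3 and 64.1 in wt, and its dF1 range overlapped that of wt (log2 difference 0.29, SE 0.18, limma adjusted p = 0.799). Plxnb2 encodes plexin-B2, a receptor for angiogenin, and was at 30.8 and 36.1 RPKM in dF1, 13.4 in dF4 (10.1 to 17.7) and 34.2 and 39.8 in wt (log2 difference of dF1 minus wt -0.14, SE 0.14, limma adjusted p = 0.87). In dF4, Plxnb2 was below every other library. Nsun2 and Trdmt1 encode methyltransferases whose marks protect transfer RNA from cleavage by angiogenin. Nsun2 was at 37.2 and 40 RPKM in dF1, 36.6 in dF4 and 33.4 and 29.6 in wt. Trdmt1 was at 1.7 and 1.9 RPKM in dF1, 3.8 in dF4 and 2.8 and 2.1 in wt. Both dF1 libraries were above both wt libraries for Nsun2 and below them for Trdmt1, as 16.8% of all transcripts tested were above and 17.9% below, and neither gene passed the test (limma adjusted p = 0.715 for Nsun2 and 0.787 for Trdmt1).

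Of the list of endolysosomal RNA handling and RNA sensing, 7 of 9 genes had a mean of at least 1 RPKM. In dF1, 2 had a higher and 5 a lower log2 mean than in wt, with a median difference of -0.11. Pld4, a lysosomal exonuclease that degrades single-stranded nucleic acid, was at 655.1 and 585.8 RPKM in dF1, 158.1 in dF4 (136 to 182) and 588.4 and 740.5 in wt. Tlr7, the endosomal receptor for single-stranded RNA, was at 68.2 and 49.9 RPKM in dF1, 7.6 in dF4 (4.44 to 12.2) and 61.7 and 50.9 in wt. Like Rnase6, these genes overlapped between dF1 and wt and were lower in dF4. Pld3, a related exonuclease, was at 34.6 and 44.2 RPKM in dF1, 49.1 in dF4 and 32.2 and 22.7 in wt, with both dF1 libraries above both wt libraries (log2 difference 0.52, SE 0.22, limma adjusted p = 0.708). Tlr13, a receptor for bacterial ribosomal RNA, was at 0.2 and 0.5 RPKM in dF1, 8.4 in dF4 and 0.4 and 0.5 in wt. Rnaset2a and Rnaset2b, near-identical copies of an acid ribonuclease, were at 3.2 RPKM or below in every library.

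Over the 3 lists, 17 genes other than the members entered the limma fit. At an adjusted p of 0.05, 0 of 17 passed, as did 0 of all 12215 transcripts. An unadjusted p under 0.05 was found for 0 of 17, against 7.16% of all transcripts, and with so few genes nothing is read from this. The median log2 difference of the 17 genes, dF1 minus wt, was -0.10, against 0.01 for all transcripts. Since Ear1, Ear2, Ear12 and Tlr13 passed the 1 RPKM filter only through dF4, the dF4 differences were read with the filter set over the dF1 and wt libraries alone, a choice made after the data were seen. The 4 genes of the RNase A superfamily that then passed split in their log2 difference of dF4 minus wt. Ear6 (4.15) and Ear7 (4.32) were higher, and Ang2 (-1.29) and Rnase12 (-1.14) lower. Their median of 1.51 describes none of them. Ang2 and Rnase12 were listed at 0 in dF4 with intervals reaching 14.1 RPKM, so a lower level was not detectable. The median was 0.28 for the 4 genes tied to angiogenin and -1.21 for 6 endolysosomal genes. The latter also split, with Tlr7 (-2.73) and Pld4 (-2.05) lower and Pld3 (0.84) higher. Their median falls between Rnaset2a (-1.7) and Rnaset2b (-0.72). Rnaset2a was listed at 0 in dF4 and Rnaset2b rests on 1 read, with intervals reaching 6.38 and 4.58 RPKM. A lower level was thus not detectable for either. For all 11825 transcripts that passed, the median was -0.03.

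**Figure D4:**
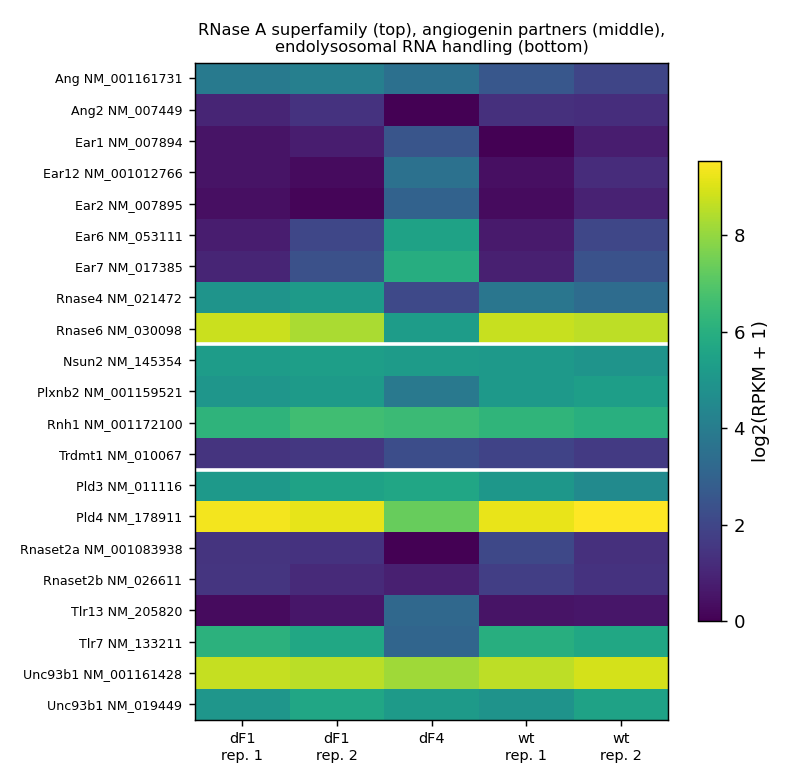
Level as log2(RPKM + 1) of each transcript from the 3 lists that averaged at least 1 RPKM, in each library. Rnase6, Pld4 and Tlr7 are lower in dF4 than in dF1 and wt, Ear6 and Ear7 are higher in dF4, and Ang and Rnase4 are higher in dF1 than in wt.

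Transcripts with the most similar profile were sought for each member by the root mean square distance of centred log2(RPKM + 1) values over the 5 libraries, among 8198 named transcripts averaging at least 5 RPKM. For Rnase6 the 5 nearest were Nenf, P2ry14, Lair1, Eepd1 and Mpeg1, at distances of 0.086 to 0.106. Mpeg1, the pore-forming perforin-2 of phagocytes, was at 1147.7 and 1008 RPKM in dF1, 118 in dF4 and 1146.6 and 1131.3 in wt. Lair1, an inhibitory collagen receptor, was at 102.5 and 88.1 RPKM in dF1, 7.8 in dF4 and 108 and 98.2 in wt. The 5 were chosen for this shape. Nenf was listed at 0 in dF4, where its interval reaches 9.36 RPKM, and was at 9.2 and 9.2 in wt, so a lower level in dF4 was not detectable at this depth.

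For Ang the nearest were Basp1, Hsd3b7, Gramd3, Hopx and Efnb1, at distances of 0.268 to 0.368. Basp1, a membrane-bound signalling protein, was at 12.2 and 19.4 RPKM in dF1, 11.7 in dF4 and 3.5 and 3.9 in wt. Hsd3b7, an enzyme of bile acid synthesis, was at 23.1 and 26 RPKM in dF1, 15.1 in dF4 and 7.9 and 8.6 in wt. For Rnase4 they were Gzma, Epsti1, Cdh5, Ifit2 and Slamf9, at 0.314 to 0.422. Gzma, a granule protease of NK and T cells, was at 634.1 and 504.2 RPKM in dF1, 73.6 in dF4 and 356.2 and 195.5 in wt. Epsti1, an interferon-induced gene, was at 24.8 and 24.6 RPKM in dF1, 2.5 in dF4 and 16.5 and 10.6 in wt. No gene was among the 5 nearest of both Ang and Rnase4, whose profiles part in the shallow dF4 library.

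**Figure D5:**
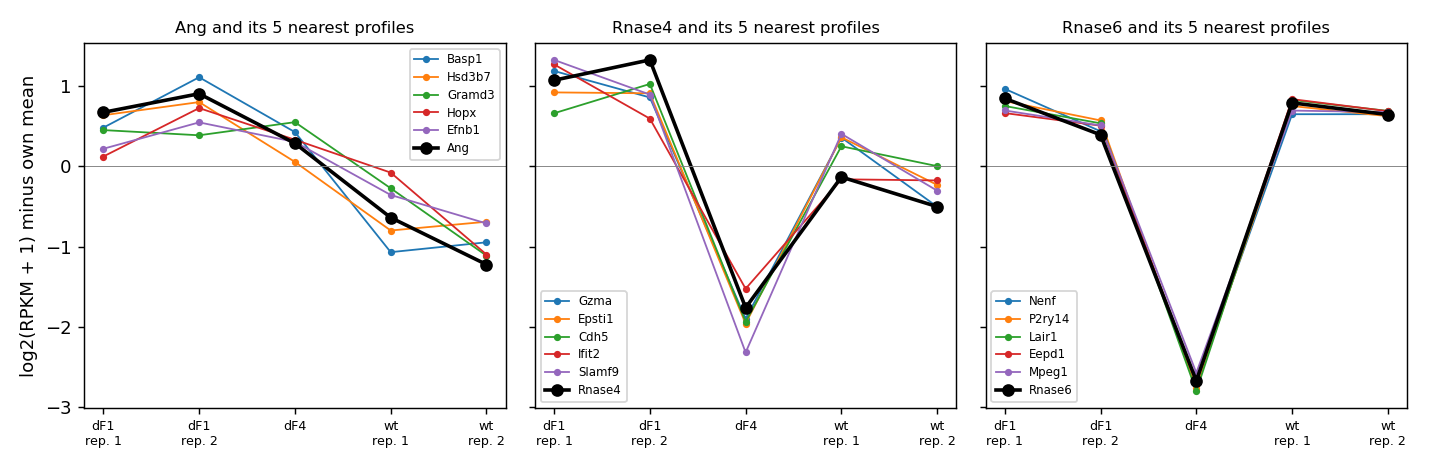
Log2(RPKM + 1) minus its mean over the 5 libraries for each member (black) and its 5 nearest transcripts (colours). The Rnase6 neighbours lie within 0.106 of it, and those of Ang and Rnase4 lie at 0.268 to 0.422.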

How the data were processed

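Per the file headers, the deposited values are RPKM per RefSeq transcript, written to 1 decimal. TopHat, bedtools and build mm9 are named, without versions, per the submitters' processing notes. Not given in the sources used here are strand use and the sharing of reads. Of the table's lines, 1 named no gene and was left out. The members, lists and tests were chosen with earlier results of these data known. Values were tested as log2(RPKM + 1), which understates changes of low transcripts, dF1 against wt, two-sided, by limma (version 3.58.1, R 4.3.3; eBayes with trend). Tested were transcripts averaging at least 1 RPKM across all 5 libraries, and p was adjusted after Benjamini and Hochberg; the fit was tested on simulated data. Of the list genes, 1 is not reported here. Each list gene was read from its transcript of highest mean. An SE printed beside a limma adjusted p is the moderated SE of limma. The SEs of the members come from their own 2 libraries per group, so the 2 kinds are not directly comparable. Named were the members, list genes with a mean of at least 1 RPKM and the 5 nearest profiles per member. Alternatives were other pseudocounts (0.1 and 5), filters, quantile normalization, median centring, robust variances, a replicate block, single libraries left out and summed transcripts. Summaries were made in Python 3.11.15.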

Additional observations from a re-analysis of the deposited data

How the results depend on the processing

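Ang and Rnase4 were higher in dF1 than in wt under every setting tried. As both dF1 libraries lay above both wt libraries, no pseudocount or left-out library could have reversed this sign. Nothing is read from its constancy. With a pseudocount of 5 the log2 difference of dF1 minus wt was 1.17 for Ang and 1.25 for Rnase4, and dF4 minus wt was 0.78 for Ang, -0.92 for Rnase4 and -3.26 for Rnase6, which was -3.58 after quantile normalization. The shift toward 0 follows from the larger pseudocount. With 1 library left out, dF1 minus wt lay between 1.43 and 2.01 for Ang, 1.33 and 1.70 for Rnase4, and -0.33 and 0.13 for Rnase6, so the small Rnase6 difference has no settled sign; it was positive without dF1 replicate 2. With 1 wt library left out, dF4 minus wt lay between 0.93 and 1.51 for Ang, -1.63 and -1.26 for Rnase4, and -3.47 and -3.32 for Rnase6. limma called 0 transcripts between dF1 and wt in most settings, 25 (13 higher, 12 lower) with a mean of at least 5 RPKM and 33 (16 higher, 17 lower) with robust variances, and 0 list genes in any; the cause was not tested. The size rule for dF4 counted 1428 transcripts, and 3298 with no filter (1874 higher, 1424 lower), where more transcripts enter. A filter over the dF1 and wt libraries alone, chosen after the data were seen, left 0 calls in dF1 and counted 448 higher and 873 lower in dF4. Same-numbered dF1 and wt libraries deviated together (correlation 0.305 across transcripts), but with 2 pairs they share only a number. A replicate block called 0 transcripts (468 higher and 603 lower at an unadjusted p under 0.05). The Ang and Rnase4 differences of 1.72 and 1.52 cannot change with a block, as each pair holds a single library of each genotype. Depth limits the dF4 values of Ang (5 and 2 reads for its rows) and of Rnase4 (3 reads).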

Other observations

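Ribonucleases outside the RNase A family, looked at after their values had been seen, showed other patterns. Rnaseh2a and Rnaseh2b encode subunits of ribonuclease H2, which removes ribonucleotides from DNA. Rnaseh2b was at 19.3 and 20.1 RPKM in dF1, 20.5 in dF4 and 19.7 and 20.2 in wt, and Rnaseh2a at 8 and 7.7 in dF1, 7.3 in dF4 and 7 and 5.9 in wt, with both dF1 libraries above both wt libraries. The subunit Rnaseh2c was at 7.2 and 12.9 RPKM in dF1, 37.9 in dF4 (15 reads, 21.7 to 63.9) and 8.2 and 10.3 in wt, so its dF4 interval lay above every other library, while those of Rnaseh2a (3.37 to 14) and Rnaseh2b (12.2 to 32.6) held them all. Rnasek was at 76.4 and 96 RPKM in dF1, 58.8 in dF4 (37.1 to 89.5) and 72 and 88 in wt.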
